A study of Mus musculus with 24 samples.

Results

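The 9 genes Gata4, Gata6, Sox17, Sox7, Pdgfra, Dab2, Cubn, Lama1 and Lamb1 mark the primitive endoderm of the mouse blastocyst. They were taken by gene name, and each was found in both tables: 9 of 23095 listed genes in the J1 table and 9 of 25476 in the tet-off table. All 9 passed the filter on low reads and were tested, among 21533 genes in the first table and 24007 in the second. Poly(A) RNA of 24 mouse cell libraries was compared, with 2 replicates in each of 12 groups. The J1 groups were ESCs grown in serum and LIF with 2i, which is the GSK3 inhibitor CHIR99021 together with the MEK inhibitor PD0325901, and the D-EPSC and L-EPSC kinds of expanded potential stem cells derived from them. D-EPSCs were grown in N2B27 with serum replacement, LIF, CHIR99021, dimethindene maleate and minocycline hydrochloride. L-EPSCs were grown with serum replacement, LIF, CHIR99021, PD0325901, A-419259, XAV939, JNK inhibitor VIII and SB203580. The tet-off groups came from 3 lines, each as ESCs, as L-EPSCs and as L-EPSCs given Dox: Oct4-cKO (ZHBTc4), Sox2-cKO (2TS22C) and Nanog-cKO (NgcKO). In every tet-off group, ESCs included, the named endogenous gene was deleted and its product came from a transgene that doxycycline (Dox) shuts off. Each tet-off genotype was 1 line, and no line without a tet-off transgene was treated with Dox here, so an effect of Dox itself and loss of the factor cannot be told apart. The medium of the tet-off ESCs is not given apart from that of J1 ESCs.

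The primitive endoderm is the layer of the blastocyst that faces the cavity and later forms the visceral and parietal endoderm of the yolk sac. FGF4 from the epiblast signals through FGF receptors and ERK to raise Gata6, which with Gata4, Sox17 and Sox7 sets up the endoderm programme, while Nanog opposes it in the epiblast. PDGFRA is a receptor on the surface of these cells, DAB2 and cubilin serve the uptake of material from outside the cell, and the laminin chains LAMA1 and LAMB1 go into the basement membrane under the endoderm.

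Promoter sequences are shown for Dab2 and Pdgfra, the members that were called higher in Oct4-cKO L-EPSCs than in ESCs and do not encode a transcription factor. The RefSeq promoter table held 4 of the 9 members (Cubn, Pdgfra, Dab2 and Lamb1). Each window is the 250 bases before an annotated start in build GRCm38.p6, 5′ to 3′, and Dab2 has 2 starts. Capitals mark letters that GATA factors bind, on either strand: the motif AGATAA, the motif TGATAA, the motif AGATAG and the motif TGATAG.
Dab2, chr15:6299539-6299788, plus strand: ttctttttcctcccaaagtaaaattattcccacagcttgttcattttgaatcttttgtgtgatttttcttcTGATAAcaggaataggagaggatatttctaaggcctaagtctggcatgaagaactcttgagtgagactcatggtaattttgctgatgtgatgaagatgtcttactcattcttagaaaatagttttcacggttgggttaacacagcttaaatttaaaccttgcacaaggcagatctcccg
Dab2, chr15:6386498-6386747, plus strand: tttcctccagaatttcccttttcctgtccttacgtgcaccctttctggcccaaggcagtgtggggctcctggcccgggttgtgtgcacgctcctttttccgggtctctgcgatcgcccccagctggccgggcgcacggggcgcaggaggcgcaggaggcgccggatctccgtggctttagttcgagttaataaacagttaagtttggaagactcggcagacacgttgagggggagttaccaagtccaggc
Pdgfra, chr5:75152001-75152250, plus strand: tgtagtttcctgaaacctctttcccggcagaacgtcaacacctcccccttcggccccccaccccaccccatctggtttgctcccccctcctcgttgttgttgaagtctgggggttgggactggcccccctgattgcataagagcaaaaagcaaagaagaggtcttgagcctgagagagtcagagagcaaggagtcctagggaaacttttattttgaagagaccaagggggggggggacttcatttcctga
Such letters were in 1 of the 5 windows of these genes, the first of Dab2, and in 26.5% of 32851 promoter windows of the same length. A match is a description of the sequence and not a bound site.

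Reads on genes ranged from 11612919 to 15069899 in the J1 libraries and from 10807631 to 14798984 in the tet-off libraries, and 1 read was worth 0.818 to 1.15 normalized counts. The targeted genes were lower with Dox: Pou5f1, which encodes Oct4, had a mean of 6368 in Oct4-cKO L-EPSCs and 173 with Dox, and Sox2 had 4833 and 50.1 in the Sox2-cKO line. Nanog had 8983 and 3139 in the Nanog-cKO line, so much of its RNA remained. RNA levels do not give the amount of protein. For Nanog protein, the paper reports loss after Dox in this line. In J1, Dusp6, a target of ERK signalling, was at 76.96 in ESCs, 752 in D-EPSCs and 1189 in L-EPSCs, although the L-EPSC medium holds PD0325901, whereas L-EPSCs of the tet-off lines had 71.9, 133 and 36.7. Axin2, a target of Wnt signalling, was at 736, 98.7 and 711 in J1 ESCs, D-EPSCs and L-EPSCs, although D-EPSC medium holds CHIR99021 and L-EPSC medium holds XAV939, while Lef1, another such target, had another order, at 7.30, 149.8 and 369. Directions in J1 are given as those of the libraries labelled D-EPSC and L-EPSC.

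Marker genes of other cells were high in the J1 libraries, although the methods state that EPSCs were kept without feeder cells for some passages before sequencing. The J1 ESCs grew either on feeders or on gelatin, and which of these gave the libraries is not given in the sources used here. The summed level of 12 macrophage gene names was 2950.2 and 2962 in ESCs, 24609 and 24693 in D-EPSCs and 18358 and 18536 in L-EPSCs. Adgre1 and Emr1 in this list name the same gene, so its level entered the sum under both names. The sum over 12 fibroblast genes was 99828 and 102194 in ESCs, 61514 and 61630.2 in D-EPSCs and 21131 and 21799 in L-EPSCs. In the tet-off libraries 11 names of each list were found. The macrophage sum was 194 to 799 there, with 7 to 9 of its names at or under 3 reads in both replicates of a group. The fibroblast sum was 419 to 1197, with 4 to 5 such names. Fibroblasts express Pdgfra and laminin chains and macrophages express Dab2, and in bulk RNA fewer cells of a type and less RNA per cell cannot be told apart.

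Divided by exonic length, the laminins were the most abundant members in the ESCs of all 3 tet-off lines, at 172 to 387 normalized counts per kb, against at most 33.6 for any of the other 7 genes. In Oct4-cKO L-EPSCs Gata6 stood with them, at 159 per kb beside 193 for Lamb1 and 149 for Lama1, while Gata4 was at 15.9 and Sox17 at 6.95. In J1 the 4 transcription factors stayed at or below 14.2 per kb in each group, and Lamb1, at 103 to 218, was the highest in each. Levels of the J1 and tet-off tables were normalized separately.

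Counted together, the members moved in both directions in most comparisons. A gene was called when its adjusted p was below 0.05 and its log2 change beyond 0.6 between states, or beyond 1 with Dox. In J1 D-EPSCs against ESCs 4 of the 9 were called higher and 1 lower, where 10.8% and 9.98% of all genes were called higher and lower. In J1 L-EPSCs against ESCs 5 were higher and 0 lower by limma (8.8% and 11.5% of all genes), with 8 and 0 at an unadjusted p under 0.05, 6 and 0 by edgeR, and 5 and 0 by DESeq2. In J1 L-EPSCs against D-EPSCs 4 were higher and 2 lower (4.8% and 8.58%). From ESCs to L-EPSCs 4 were higher and 1 lower in the Oct4-cKO line (13% and 15.4%), 2 and 6 in the Sox2-cKO line (7.99% and 11.6%), and 3 and 4 in the Nanog-cKO line (12.2% and 14.7%). With Dox 1 was higher and 3 lower in Oct4-cKO L-EPSCs (8.53% and 10.8%), and the counts were also 1 and 3 in Sox2-cKO L-EPSCs (7.79% and 7.32%). In Nanog-cKO L-EPSCs 0 were higher and 1 lower with Dox by limma, edgeR and DESeq2 (2.8% and 2.59%), and 2 were higher and 2 lower at an unadjusted p under 0.05. The median log2 change of the 9 ran from −0.91 in the Sox2-cKO conversion to 1.69 in J1 L-EPSCs against ESCs, where that of all genes tested was 0 in both. Of the 45 calls, 26 held whichever replicate was left out and 19 were lost in at least 1 such fit. The calls that were lost were every call of Sox7 and some of those of Gata4, Sox17 and Cubn, with Pdgfra in the Oct4-cKO conversion and Lamb1 in J1 L-EPSCs against D-EPSCs.

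**Figure D1:**
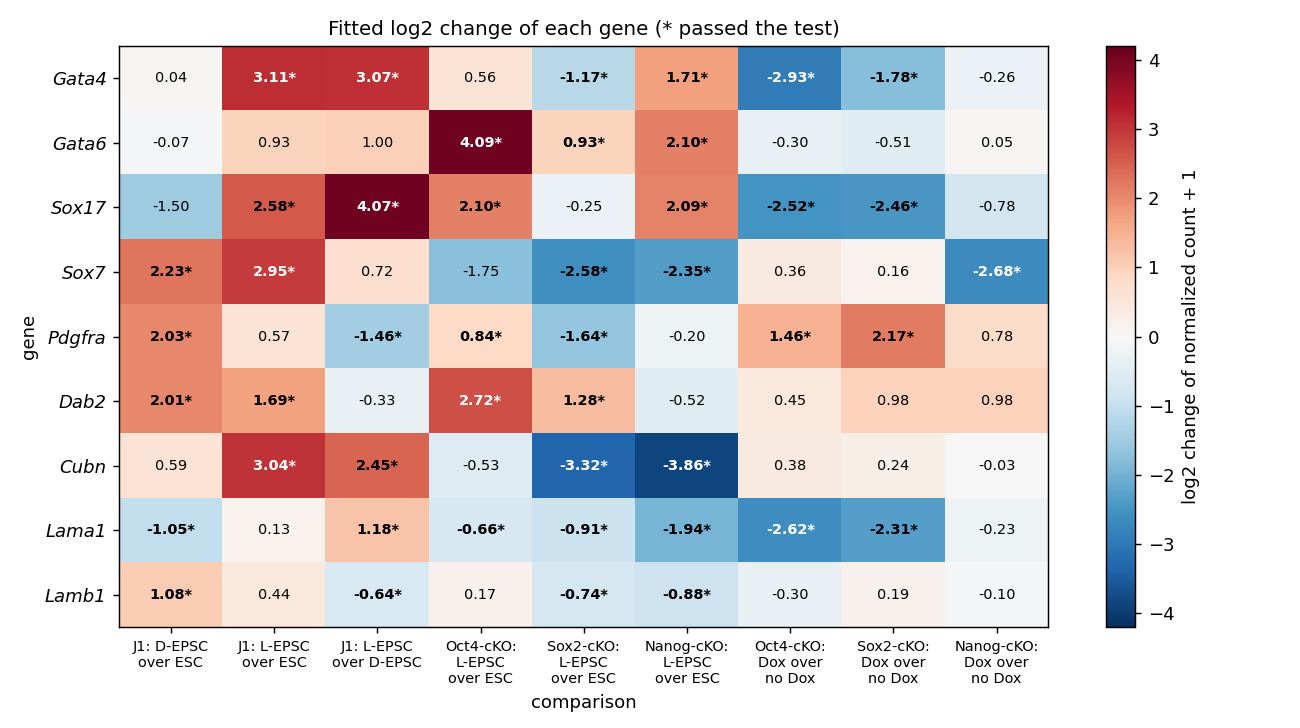
Fitted log2 change (of the normalized count + 1) of each gene (rows) in the 9 comparisons (columns), in colour, with an asterisk where the test was passed. Gata6 rose in all 3 tet-off conversions, by 0.93 to 4.09, and Lama1 had log2 changes of −2.62 and −2.31 with Dox in the Oct4- and Sox2-cKO lines.

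Gata6, the zinc-finger factor at the start of the endoderm programme, had its highest level in Oct4-cKO L-EPSCs. It was at 26.1 and 31.9 normalized counts in Oct4-cKO ESCs, 534 and 481 in L-EPSCs and 434 and 389.6 in Dox-treated L-EPSCs. In the Sox2-cKO line it was at 94.9 and 119.6 in ESCs, 218 and 191 in L-EPSCs and 140.2 and 146 with Dox. The Nanog-cKO line had 15.7 and 13.5 in ESCs, 63.9 and 67.3 in L-EPSCs and 67.6 and 68.6 with Dox. No neighbouring groups in the order of the 9 means overlapped, and the highest mean was 34.9 times the lowest. Gata6 rose from ESCs to L-EPSCs in each line, by 4.09 ± 0.16 (log2 change ± SE, limma adjusted p = 2.54e-12) in the Oct4-cKO line, 0.93 ± 0.16 (adjusted p = 0.000161) in the Sox2-cKO line and 2.10 ± 0.16 (adjusted p = 1.03e-08) in the Nanog-cKO line. The rise was larger in the Oct4-cKO line than in the Sox2-cKO and Nanog-cKO lines, by 3.16 ± 0.22 and 1.99 ± 0.22 (adjusted p = 4e-08 and 4.23e-06). With only the groups compared in the fit, the Sox2-cKO call was lost (adjusted p = 0.0563). With Dox the log2 changes were −0.30, −0.51 and 0.05 in the Oct4-, Sox2- and Nanog-cKO lines, none of them called.

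In J1, Gata6 was at 17.1 and 24.9 in ESCs, 24.5 and 15.7 in D-EPSCs and 45.2 and 35.6 in L-EPSCs. The L-EPSC libraries lay above those of both other groups, with log2 changes of 0.93 ± 0.37 over ESCs (adjusted p = 0.0816) and 1.00 ± 0.37 over D-EPSCs (adjusted p = 0.078). Neither was called by limma, and both were called by edgeR (adjusted p = 0.0241 and 0.0228).

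Gata4, the related factor that acts beside and after Gata6, lies at chr14:63817759-63890529 on the minus strand (NCBIM37, the build of the counts). In the Oct4-cKO line it was at 63.8 and 27.1 in ESCs, 56.8 and 67.4 in L-EPSCs and 4.61 and 11.1 with Dox. The Sox2-cKO line had 101 and 86.7 in ESCs, 44.3 and 37.9 in L-EPSCs and 14.02 and 8.99 with Dox. In the Nanog-cKO line it was at 38.7 and 68.4 in ESCs, 159.8 and 182 in L-EPSCs and 151 and 135 with Dox. Dox-treated libraries lay below those of untreated L-EPSCs in each line. The log2 change with Dox was −2.93 ± 0.40 in the Oct4-cKO line (limma adjusted p = 1.29e-05) and −1.78 ± 0.40 in the Sox2-cKO line (adjusted p = 0.00184), both called, where the Nanog-cKO change was −0.26 ± 0.40 (adjusted p = 0.762). With only the groups compared in the fit these calls were lost (adjusted p = 0.0508 and 0.053). The Dox effect differed between the Oct4- and Nanog-cKO lines by −2.68 ± 0.57 (adjusted p = 0.00138). Between the Sox2- and Nanog-cKO lines the difference was −1.52 ± 0.57 (adjusted p = 0.0568), which edgeR and DESeq2 called (adjusted p = 0.000238 and 0.00284).

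From ESCs to L-EPSCs, Gata4 rose in the Nanog-cKO line by 1.71 ± 0.40 (limma adjusted p = 0.00226), fell in the Sox2-cKO line with a log2 change of −1.17 ± 0.40 (adjusted p = 0.0312), and had a log2 change of 0.56 ± 0.40 in the Oct4-cKO line (adjusted p = 0.3). The Sox2-cKO call was lost without any 1 of its 4 libraries (adjusted p = 0.0983 to 0.176), and the Nanog-cKO call without ESC replicate 1 (adjusted p = 0.0606) or with only the groups compared (adjusted p = 0.0706). In J1, Gata4 was at 3.59 and 8.30 in ESCs, 4.08 and 7.83 in D-EPSCs and 55.5 and 55.2 in L-EPSCs, where L-EPSCs stood 9.31-fold above ESCs. The log2 change over ESCs was 3.11 ± 0.50 (adjusted p = 0.00177) and over D-EPSCs 3.07 ± 0.50 (adjusted p = 0.00271). The first call was lost without either L-EPSC library (adjusted p up to 0.0561), and the second without either L-EPSC library or D-EPSC replicate 1 (adjusted p up to 0.0738).

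Sox17, an HMG-box factor of the endoderm, had few reads (chr1:4481009-4486494, minus strand). It was at 4.18 and 3.87 in Oct4-cKO ESCs, 14.2 and 29.6 in L-EPSCs and 1.15 and 5.55 with Dox. In the Sox2-cKO line it was at 17.2 and 13.01, 14.04 and 10.97 and 4.95 and 0, and in the Nanog-cKO line at 3.14 and 10.1, 33.02 and 23.4 and 18.4 and 13.5, in the same order. Of 8 neighbouring pairs of groups in the order of the means, 7 overlapped. It rose on conversion by 2.10 ± 0.76 in the Oct4-cKO line and 2.09 ± 0.76 in the Nanog-cKO line (limma adjusted p = 0.0333 and 0.0354), and fell with Dox, with log2 changes of −2.52 ± 0.76 in the Oct4-cKO line and −2.46 ± 0.76 in the Sox2-cKO line (adjusted p = 0.0122 and 0.0157). The Oct4-cKO rise was lost without any 1 of its 4 libraries (adjusted p = 0.0532 to 0.24), and the Nanog-cKO rise without ESC replicate 1 or either L-EPSC library (adjusted p up to 0.303). The Oct4-cKO fall was lost without Dox replicate 1 or untreated replicate 2 (adjusted p up to 0.173), and the Sox2-cKO fall without Dox replicate 2 or either untreated library (adjusted p up to 0.283).

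In J1, Sox17 had no read in either D-EPSC library, 2 and 2 reads in ESCs, then 10.3 and 24.1 normalized counts in L-EPSCs. L-EPSCs were at least 5.74-fold higher than D-EPSCs, taking the floor of 3 reads in each D-EPSC library, and the difference was called (limma adjusted p = 0.0013). The change over ESCs was 2.58 ± 0.58 (adjusted p = 0.00856), a call lost without either ESC library (adjusted p up to 0.075). Sox17 and Sox7 are also expressed by endothelium. The summed level of the endothelial list was 262 and 267 in J1 ESCs, 275 and 241 in D-EPSCs and 188 and 216 in L-EPSCs, and in the tet-off groups it ran from 67.4 to 675, with 0 to 3 of its 7 genes at or under 3 reads in both replicates. Of 7 endothelial genes tested, 1 higher and 2 lower, 0 higher and 4 lower and 1 higher and 3 lower were called on conversion in the Oct4-, Sox2- and Nanog-cKO lines. The shares of all genes were 13% and 15.4%, 7.99% and 11.6% and 12.2% and 14.7%. In J1, with 8 tested, 3 higher and 1 lower were called in D-EPSCs against ESCs (10.8% and 9.98% of all genes) and 1 higher and 1 lower in L-EPSCs (8.8% and 11.5%). Some of these counts are near the shares. The part of endothelial genes in the Sox17 and Sox7 values was not tested.

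Sox7, of the same subgroup as Sox17 (chr14:64562511-64569569, plus strand), was highest in the Nanog-cKO ESCs. It was at 109 and 63.9 there, 18.1 and 13.3 in Nanog-cKO L-EPSCs and 0 and 5.62 with Dox. No library of the other tet-off lines was above 19.1. Sox7 fell in the Nanog-cKO line, with log2 changes of −2.35 ± 0.77 on conversion (limma adjusted p = 0.021) and −2.68 ± 0.77 with Dox (adjusted p = 0.0174). The first call was lost without ESC replicate 1 or either L-EPSC library (adjusted p up to 0.156), and the second without either untreated library or Dox replicate 1 (adjusted p up to 0.258). Sox2-cKO ESCs had 10 and 22 reads, their L-EPSCs 1 and 2, a ratio of 0.105 (95% counting interval 0.0203 to 0.332), and this fall was called (adjusted p = 0.0147), but not without ESC replicate 2 or either L-EPSC library (adjusted p up to 0.134). In the Oct4-cKO line Sox7 was at 11.5 and 6.77 in ESCs but 3.55 and 0.898 in L-EPSCs, a difference that edgeR and DESeq2 called (adjusted p = 0.0225 and 0.0358) and limma did not (adjusted p = 0.0823).

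In J1, Sox7 had 1 and 0 reads in ESCs, 6 and 5 in D-EPSCs and 13 and 6 in L-EPSCs. The ratio over ESCs was 12.3 (95% counting interval 1.76 to 520.1) in D-EPSCs and 22.5 (95% counting interval 3.61 to 944) in L-EPSCs, and both were called (limma adjusted p = 0.0185 and 0.00492). The D-EPSC call was lost without any 1 of the 4 libraries (adjusted p = 0.0521 to 0.126) and under DESeq2 (adjusted p = 0.0892). The L-EPSC call was lost without ESC replicate 2 or L-EPSC replicate 1 (adjusted p up to 0.0595).

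**Figure D2:**
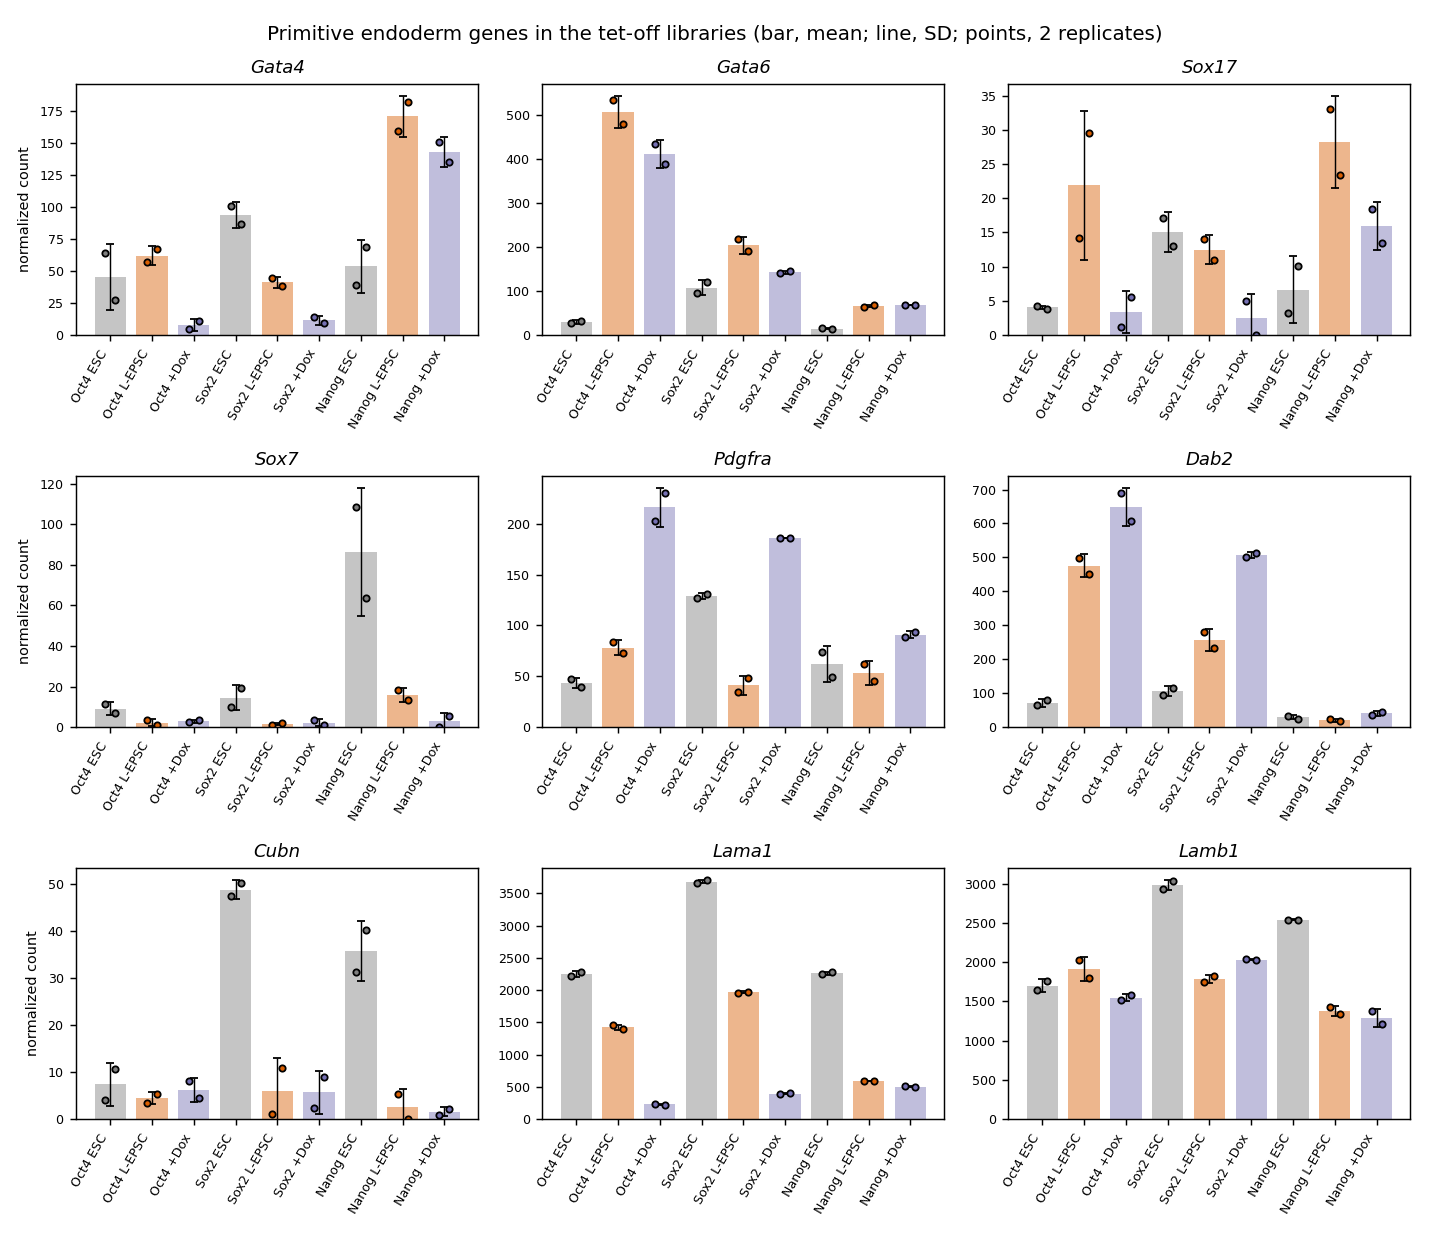
Normalized count of each gene in the 9 tet-off groups, where bars are means, lines SD and points the 2 replicates. Gata6 is highest in Oct4-cKO L-EPSCs, Dab2 in Dox-treated Oct4-cKO L-EPSCs, Gata4 in Nanog-cKO L-EPSCs and Lama1 in Sox2-cKO ESCs (3663 and 3699).

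Pdgfra (chr5:75548316-75594229, plus strand), the receptor for PDGF-A on primitive endoderm cells, rose with Dox in the Oct4- and Sox2-cKO lines. It was at 47.1 and 39.6 in Oct4-cKO ESCs, 83.4 and 72.8 in L-EPSCs and 203 and 229.8 with Dox. The Sox2-cKO line had 127 and 131 in ESCs, 34.6 and 47.9 in L-EPSCs and 186 and 186 with Dox. The Nanog-cKO line had 74.2 and 49.3, 61.8 and 44.9 and 88.7 and 93.3 in the same order. Dox-treated libraries lay above untreated L-EPSCs in each line. The rise with Dox was 1.46 ± 0.22 in the Oct4-cKO line (log2, limma adjusted p = 2.99e-05) and 2.17 ± 0.22 in the Sox2-cKO line (adjusted p = 4.14e-07), and the Nanog-cKO change of 0.78 ± 0.22 (adjusted p = 0.014) stayed below the limit of 1. The Sox2-cKO effect exceeded the Nanog-cKO one by 1.39 ± 0.31 (adjusted p = 0.00216). On conversion Pdgfra rose in the Oct4-cKO line by 0.84 ± 0.22 (adjusted p = 0.00448) and fell in the Sox2-cKO line with a log2 change of −1.64 ± 0.22 (adjusted p = 1.31e-05), a difference between the lines of 2.48 ± 0.31 (adjusted p = 1.86e-05). The Oct4-cKO rise was not called without ESC replicate 2 (adjusted p = 0.0537). Nanog-cKO ESCs and L-EPSCs overlapped.

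In J1, Pdgfra was at 215 and 208 in ESCs, 870.0 and 867 in D-EPSCs and 318 and 313 in L-EPSCs, with no overlap. It was higher in D-EPSCs than in ESCs by 2.03 ± 0.07 (limma adjusted p = 3.48e-07) and the log2 change of L-EPSCs against D-EPSCs was −1.46 ± 0.07 (adjusted p = 4.33e-06). Most of the fibroblast sum came from Col1a1 and Col1a2, and its genes did not all move alike. Of 12 fibroblast genes tested, 3 higher and 4 lower were called in D-EPSCs against ESCs (10.8% and 9.98% of all genes). The counts were 0 higher and 9 lower for L-EPSCs against ESCs (8.8% and 11.5%), then 0 higher and 11 lower for L-EPSCs against D-EPSCs (4.8% and 8.58%). Dcn (decorin), Twist2 and Thy1 were the 3 called higher in D-EPSCs, with means of 627, 70.2 and 199 in ESCs and 1596, 166 and 314 in D-EPSCs. The part of fibroblast RNA in the Pdgfra values was not tested.

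Dab2 (chr15:6249788-6390712, plus strand) encodes a clathrin adaptor for endocytosis. It was at 63.8 and 79.3 in Oct4-cKO ESCs, 499.6 and 451 in L-EPSCs and 689 and 608 with Dox. The Sox2-cKO line had 94.9 and 116 in ESCs, 281 and 234 in L-EPSCs and 499.9 and 513 with Dox. In the Nanog-cKO line it was at 33.5 and 24.7 in ESCs, 22.4 and 17.3 in L-EPSCs and 35.1 and 44.97 with Dox. No neighbouring groups in the order of the means overlapped, and the highest mean was 32.7 times the lowest. Dab2 rose on conversion by 2.72 ± 0.19 in the Oct4-cKO line (limma adjusted p = 3.08e-09) and 1.28 ± 0.19 in the Sox2-cKO line (adjusted p = 3.62e-05), whereas the Nanog-cKO change was −0.52 ± 0.19 (adjusted p = 0.0321) and not called. The Oct4-cKO rise exceeded the Sox2-cKO one by 1.44 ± 0.26 (adjusted p = 0.000763), and the Sox2-cKO rise exceeded the Nanog-cKO change by 1.80 ± 0.26 (adjusted p = 7.15e-05). With Dox the changes of 0.45 ± 0.19, 0.98 ± 0.19 and 0.98 ± 0.19 in the Oct4-, Sox2- and Nanog-cKO lines stayed below the limit of 1 (adjusted p = 0.0651, 0.000411 and 0.000861). The last 2 rises lay close to that limit. Leaving out 1 library gave 0.85 to 1.11 in the Sox2-cKO line and 0.80 to 1.15 in the Nanog-cKO line. With a pseudocount of 0.1 the Nanog-cKO rise, 2.02-fold by the means, was called (log2 1.01, limma adjusted p = 0.00102).

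In J1, Dab2 was at 167 and 159.5 in ESCs, 651 and 673 in D-EPSCs and 509 and 547 in L-EPSCs. It rose over ESCs by 2.01 ± 0.07 in D-EPSCs (limma adjusted p = 6.02e-07) and by 1.69 ± 0.07 in L-EPSCs (adjusted p = 1.57e-06). The macrophage sum had the same order of groups. Of 11 macrophage genes tested, 11 higher and 0 lower were called in D-EPSCs against ESCs (10.8% and 9.98% of all genes). The counts were 8 higher and 0 lower for L-EPSCs against ESCs (8.8% and 11.5%), then 0 higher and 6 lower for L-EPSCs against D-EPSCs (4.8% and 8.58%). Among these genes Lyz2, the macrophage lysozyme, had means of 1076, 15677 and 12992 in ESCs, D-EPSCs and L-EPSCs, whereas Mrc1 had 62.9, 564 and 593. The part of macrophage RNA in these Dab2 values was not tested.

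**Figure D3:**
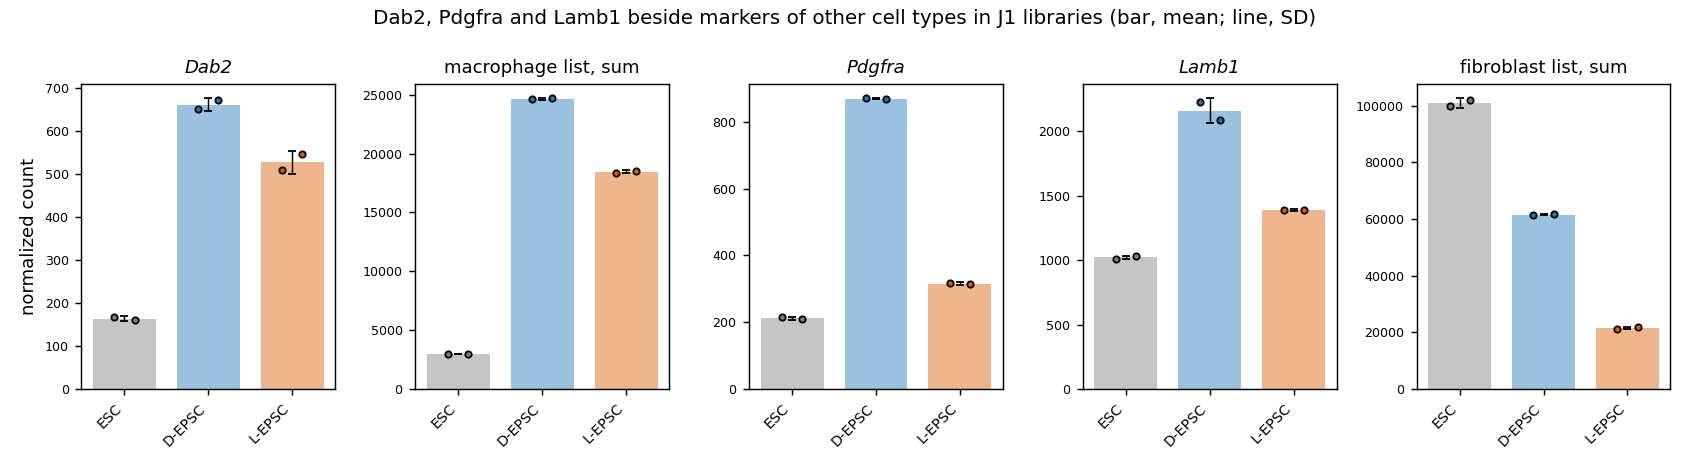
Normalized counts of Dab2, Pdgfra and Lamb1 beside the summed levels of the macrophage and fibroblast lists in the 3 J1 groups; bars are means, lines SD and points the 2 replicates. Dab2 and the macrophage sum share the order ESC, L-EPSC, D-EPSC, and the fibroblast sum is highest in ESCs (99828 and 102194).

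Cubn (chr2:13197965-13413551, minus strand) encodes the endocytic receptor cubilin. It went from 47.4 and 50.3 in Sox2-cKO ESCs to 1.08 and 10.97 in their L-EPSCs, and from 31.4 and 40.4 in Nanog-cKO ESCs to 5.33 and 0 in theirs. The log2 changes were −3.32 ± 0.88 and −3.86 ± 0.88, both called (limma adjusted p = 0.00672 and 0.00177). The Sox2-cKO call was lost without either ESC library or L-EPSC replicate 1 (adjusted p up to 0.148), and the Nanog-cKO call without L-EPSC replicate 2 (adjusted p = 0.0536). In the Oct4-cKO line Cubn was at 4.18 and 10.6 in ESCs, 3.55 and 5.39 in L-EPSCs and 8.06 and 4.44 with Dox, and these groups overlapped. No Dox change of Cubn was called. In J1, Cubn was at 12.6 and 8.30 in ESCs, 18.4 and 13.7 in D-EPSCs and 104 and 80.4 in L-EPSCs, 8.83-fold above ESCs in the last. The log2 change was 3.04 ± 0.35 over ESCs (adjusted p = 0.000283) and 2.45 ± 0.35 over D-EPSCs (adjusted p = 0.00139), and the second call was lost without D-EPSC replicate 2 or L-EPSC replicate 1 (adjusted p up to 0.053).

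Mesendoderm genes moved in the J1 L-EPSC libraries in which Gata4, Sox17 and Cubn were high. Of 7 tested, 3 higher and 1 lower were called against ESCs (median log2 change 1.31), where 8.8% and 11.5% of all genes were. The counts were 2 higher and 0 lower against D-EPSCs (4.8% and 8.58%), and 0 higher and 3 lower in D-EPSCs against ESCs (10.8% and 9.98%). Eomes, a T-box factor of the early embryo, was at 146 and 124 in ESCs, 31.7 and 26.4 in D-EPSCs and 453 and 446 in L-EPSCs. Gsc, another gene of the list, went the other way in L-EPSCs. It was at 109.6 and 124.5 in ESCs, 1.02 and 0 in D-EPSCs and 7.20 and 1.15 in L-EPSCs. The part of mesendoderm-like cells in the J1 values was not tested.

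Lama1 (chr17:68046605-68171985, plus strand) encodes the alpha-1 chain of laminin. The Oct4-cKO line had 2213 and 2278 in ESCs, 1454 and 1391 in L-EPSCs and 235 and 226 with Dox. The Sox2-cKO line had 3663 and 3699, 1953 and 1976 and 388 and 401 in the same order, and the Nanog-cKO line 2247 and 2278, 594 and 586 and 510.3 and 497. ESC libraries were highest and Dox-treated ones lowest in each line, with no overlap. Lama1 fell on conversion, with log2 changes of −0.66 ± 0.04 in the Oct4-cKO line, −0.91 ± 0.04 in the Sox2-cKO line and −1.94 ± 0.04 in the Nanog-cKO line (limma adjusted p = 1.29e-09, 6.27e-11 and 3.03e-15). The change differed between the Oct4- and Nanog-cKO lines by 1.28 ± 0.06 and between the Sox2- and Nanog-cKO lines by 1.03 ± 0.06 (adjusted p = 2.94e-10 and 3.43e-09). With Dox it also fell, with log2 changes of −2.62 ± 0.04 in the Oct4-cKO line, 6.16-fold (adjusted p = 4.36e-17), and −2.31 ± 0.04 in the Sox2-cKO line, 4.98-fold (adjusted p = 4.59e-16). The Nanog-cKO change with Dox, −0.23 ± 0.04, was not called. The Dox effects of the Oct4- and Sox2-cKO lines differed from it by −2.39 ± 0.06 and −2.09 ± 0.06 (adjusted p = 3.61e-14 and 3.81e-13).

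In J1, Lama1 was at 559.8 and 590.2 in ESCs, 265 and 289.8 in D-EPSCs and 600.4 and 663 in L-EPSCs. D-EPSCs were lowest, with a log2 change of −1.05 ± 0.08 against ESCs (limma adjusted p = 2.92e-05), and L-EPSCs stood above D-EPSCs by 1.18 ± 0.08 (adjusted p = 3e-05). The change of L-EPSCs against ESCs was 0.13 ± 0.08 (adjusted p = 0.232).

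Lamb1 (chr12:31950099-32014509, plus strand), the beta-1 chain of the same laminin, had the narrowest range of the 9 in the tet-off groups, with the highest mean 2.31 times the lowest. From ESCs to L-EPSCs it went from 1639.5 and 1763 to 2025 and 1802 in the Oct4-cKO line, from 2932 and 3027 to 1746 and 1823 in the Sox2-cKO line, and from 2541 and 2543 to 1425 and 1338 in the Nanog-cKO line. With Dox it was at 1514 and 1583, 2036 and 2031 and 1374 and 1211 in these lines. It fell on conversion, with log2 changes of −0.74 ± 0.06 in the Sox2-cKO line and −0.88 ± 0.06 in the Nanog-cKO line (limma adjusted p = 6.83e-08 and 4.45e-09). The Oct4-cKO change was 0.17 ± 0.06, above those of the Sox2- and Nanog-cKO lines by 0.91 ± 0.09 and 1.05 ± 0.09 (adjusted p = 1.32e-06 and 1.62e-07). No Dox change of Lamb1 was called. In J1, Lamb1 was at 1013 and 1031 in ESCs, 2230.2 and 2092 in D-EPSCs and 1393 and 1387 in L-EPSCs. It was higher in D-EPSCs than in ESCs by 1.08 ± 0.04 (adjusted p = 9.29e-07), where 3 higher and 4 lower of the fibroblast genes were called. Against D-EPSCs, L-EPSCs had a log2 change of −0.64 ± 0.04 (adjusted p = 3.19e-05), which came under the limit of 0.6 without D-EPSC replicate 1, and 0 higher and 11 lower fibroblast genes were called there. The shares of all genes in these comparisons stand with Pdgfra above. The part of fibroblast genes in the Lamb1 values was not tested.

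**Figure D4:**
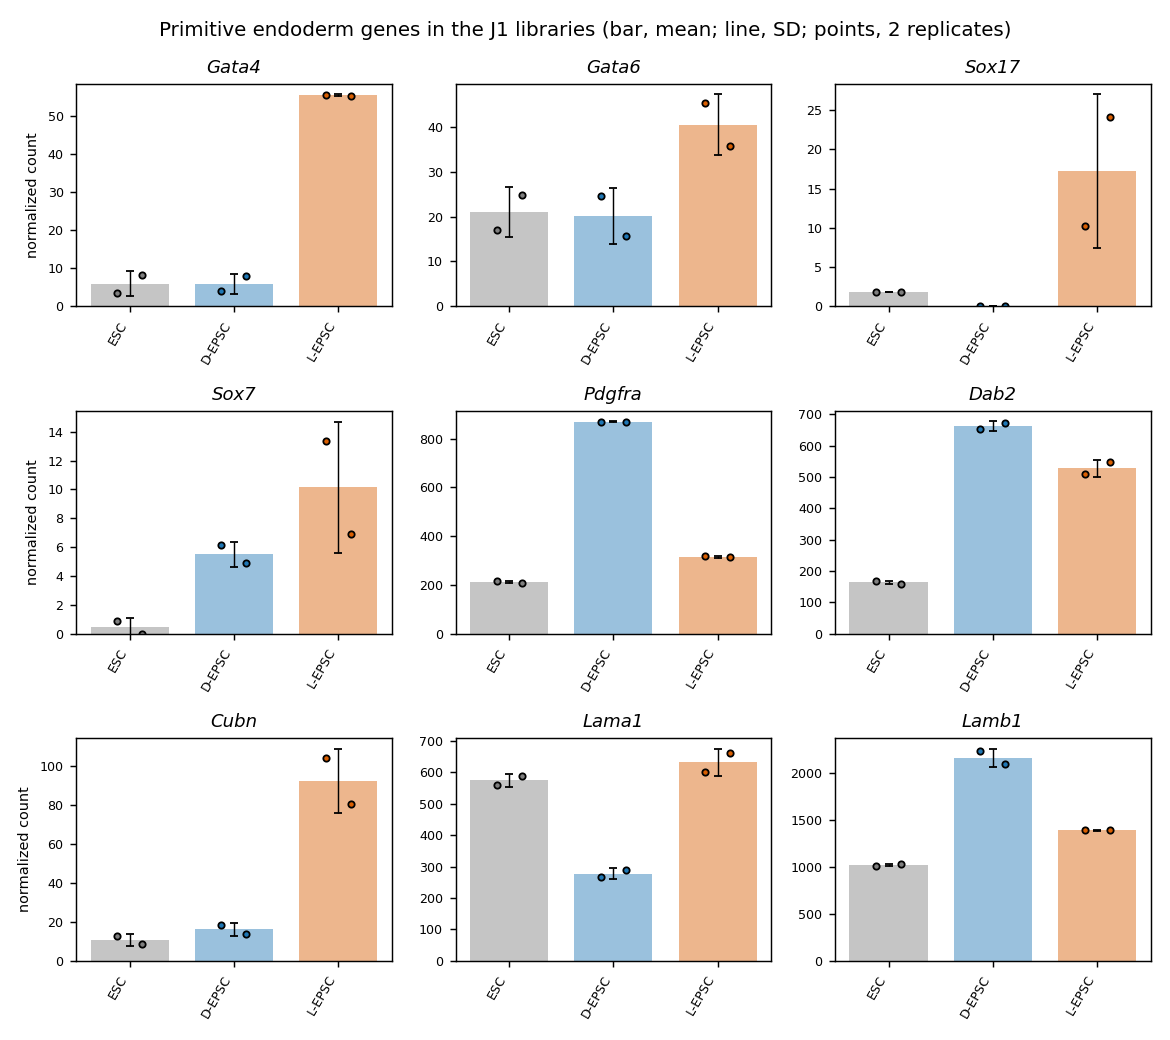
Normalized count of each gene in the 3 J1 groups, where bars are means, lines SD and points the 2 replicates. Gata4, Sox17 and Cubn are highest in L-EPSCs, and Pdgfra (870.0 and 867), Dab2 and Lamb1 in D-EPSCs.

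Differences between lines were tested in the same fit. Members were called 5 times between the Oct4- and Sox2-cKO conversions (10% of all genes), 5 times between the Oct4- and Nanog-cKO conversions (14.7%) and 5 times between the Sox2- and Nanog-cKO conversions (14.8%). For the Dox effect 3 members were called between the Oct4- and Nanog-cKO lines (14.8%) and 2 between the Sox2- and Nanog-cKO lines (11.3%). Between the Oct4- and Sox2-cKO lines the count was 0 by limma, edgeR and DESeq2 (6.81%). Pdgfra, Lama1 and Lamb1 were at an unadjusted p under 0.05, with log2 differences of −0.71 ± 0.31, −0.30 ± 0.06 and −0.49 ± 0.09. Each of these differences was within the log2 limit of 1 for Dox, so none could be called whatever its adjusted p. The comparisons of 1 line share its libraries.

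Other genes of the endoderm were described from 4 lists, whose counts stand beside the shares of all genes called higher and lower: 8.53% and 10.8%, 7.79% and 7.32% and 2.8% and 2.59% with Dox in the Oct4-, Sox2- and Nanog-cKO lines, 13% and 15.4%, 7.99% and 11.6% and 12.2% and 14.7% on conversion, and 10.8% and 9.98% and 8.8% and 11.5% in J1 D-EPSCs and L-EPSCs against ESCs. Several of the counts, such as 1 of 11, are near these shares, and they describe the lists only. Among other endoderm factors and signals, 11 were tested in the tet-off table, and with Dox 1 higher and 3 lower were called in the Oct4-cKO line, 1 higher and 1 lower in the Sox2-cKO line and 0 higher and 1 lower in the Nanog-cKO line. Fgf4, the ligand that induces the layer, went from 2881 and 2879.9 to 81.8 and 65.5 with Dox in the Oct4-cKO line, from 3722 and 3566 to 507 and 467 in the Sox2-cKO line and from 5244 and 4991 to 2136 and 2034 in the Nanog-cKO line. It fell in each, with log2 changes of −5.28 ± 0.07, −2.90 ± 0.07 and −1.29 ± 0.07 (limma adjusted p = 5.68e-18, 1.69e-14 and 1.58e-09). Fgfr2, an FGF receptor of the primitive endoderm, rose by 1.09 ± 0.10 with Dox in the Oct4-cKO line (adjusted p = 1.24e-07). On conversion the counts were 2 higher and 3 lower in the Oct4-cKO line, 1 higher and 3 lower in the Sox2-cKO line and 2 higher and 3 lower in the Nanog-cKO line. In J1, with 10 tested, they were 2 higher and 3 lower for D-EPSCs against ESCs, then 1 higher and 4 lower for L-EPSCs.

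Of 10 further basement membrane genes, 0 higher and 6 lower were called with Dox in the Oct4-cKO line, 1 higher and 2 lower in the Sox2-cKO line and 0 higher and 2 lower in the Nanog-cKO line. In the Oct4-cKO line Lama5, another laminin alpha chain, had a log2 change of −2.26 ± 0.04, Nid2, a nidogen, of −2.07 ± 0.04 and Lamc1, the gamma-1 chain that joins LAMA1 and LAMB1, of −1.48 ± 0.02 (limma adjusted p = 5.73e-17, 1.65e-16 and 1.85e-17). On conversion 4 higher and 0 lower were called in the Oct4-cKO line, 3 higher and 0 lower in the Sox2-cKO line and 4 higher and 1 lower in the Nanog-cKO line. Col4a1 (type IV collagen) rose in all 3, by 2.10 ± 0.06, 1.68 ± 0.06 and 1.07 ± 0.06, where Lama1 fell. In J1 the counts against ESCs were 2 higher and 6 lower for D-EPSCs, then 0 higher and 6 lower for L-EPSCs, and Nid1, another nidogen, fell, with log2 changes of −2.07 ± 0.04 and −1.98 ± 0.04.

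Of 10 endocytosis and visceral endoderm genes tested in the tet-off table, 1 higher and 4 lower were called with Dox in the Oct4-cKO line and 0 higher and 3 lower in the Sox2-cKO line. In the Nanog-cKO line no gene of the list passed limma's test, and their median log2 change was 0.34. Amn, the partner that carries cubilin to the membrane, fell with Dox, with log2 changes of −2.69 ± 0.35 and −2.54 ± 0.35, in the Oct4- and Sox2-cKO lines (limma adjusted p = 6.33e-06 and 1.47e-05). On conversion the counts were 2 higher and 1 lower, 0 higher and 1 lower and 2 higher and 2 lower in the Oct4-, Sox2- and Nanog-cKO lines, and Apob, an apolipoprotein of the visceral endoderm, fell in each, with log2 changes of −3.75 ± 0.58, −4.46 ± 0.58 and −4.43 ± 0.58. In J1, with 9 tested, 1 higher and 1 lower were called for D-EPSCs against ESCs (median log2 change −0.22). For L-EPSCs against ESCs 1 higher and 0 lower were called (median −0.13). Lrp2 (megalin), the other large receptor that acts with cubilin, was at 471 and 454 in J1 ESCs, 1606 and 1717 in D-EPSCs and 364 and 402 in L-EPSCs. Of 7 parietal endoderm genes, 1 higher and 2 lower were called with Dox in the Oct4-cKO line, 2 higher and 3 lower in the Sox2-cKO line and 1 higher and 1 lower in the Nanog-cKO line. Plat, a plasminogen activator, rose by 2.54 ± 0.27 and 2.37 ± 0.27 in the Oct4- and Sox2-cKO lines, and Fst (follistatin) fell, with log2 changes of −2.72 ± 0.50 and −4.68 ± 0.50. Trophoblast genes moved beside the members and these lists, and their conversion and Dox counts stand beside the same shares of all genes. On conversion 6 higher and 0 lower, 0 higher and 4 lower and 5 higher and 1 lower of 11 were called in the Oct4-, Sox2- and Nanog-cKO lines, and 6 higher and 0 lower for the difference between the Oct4- and Sox2-cKO conversions (median 1.84, where that of the members was 1.73). With Dox the counts were 8 higher and 0 lower in the Oct4-cKO line, 9 higher and 0 lower in the Sox2-cKO line and 1 higher and 0 lower in the Nanog-cKO line, and the part of trophoblast-like cells in the values above was not tested.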

How the data were processed

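Total RNA of 24 libraries was sequenced after poly(A) selection. Per the labels and the submitters' processing notes, reads were trimmed with Trim Galore 0.6.4, aligned to NCBIM37 with STAR 2.7.9a and counted with HTSeq 0.11.2, and the strand setting is not given in the sources used here. The authors deposited normalized read counts (a signal scaled by DESeq2 size factors, noted as version 4.1.1) in 2 tables that were normalized separately. At least 99.9957% of the values in each library were whole reads within 0.01 read, so reads were recovered from them. No column belonged to other samples (0 columns).

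The main test was limma 3.58.1 (R 4.3.3) with a trend on log2(normalized count + 1), which understates changes of low genes, for genes with at least 2 reads, with all groups of a table in 1 fit and Benjamini-Hochberg adjustment over all genes tested. Because the unit was normalized counts, edgeR 4.0.16 and DESeq2 1.42.0 on the recovered reads were alternatives, beside TMM scaling, median centring, a pseudocount of 0.1, a mean of at least 10, no filter, only the groups compared, a replicate block, other fold limits and leaving out each library. The scripts were run on simulated counts with little spread between replicates, for a single comparison of each table. Changes were set only in genes with a mean of at least 10, so changes of low genes and differences between lines were not covered.

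Named genes were the 9 members, the 3 targeted genes, and from other lists at most 4 genes with the largest called change per comparison. For likeness, 3 genes per member were named. Dusp6, Axin2, Lef1, Lyz2, Dcn, Twist2 and Thy1 were named after their values were seen. The members and lists were chosen with earlier results of these data known. Labels do not say that replicates were separate cultures, so p-values measure only the spread between these libraries, and counting intervals cover counting error only. Reads of a transgene and of the endogenous gene cannot be told apart. Positions come from the GENCODE annotation of NCBIM37.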

Additional observations from a re-analysis of the deposited data

Results flagged for a closer look

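The following log2 differences between lines passed the test of the difference itself (limma adjusted p below 0.05, beyond 0.6 for conversion and beyond 1 for Dox). For the change from ESCs to L-EPSCs, the Oct4-cKO line exceeded the Sox2-cKO line by 1.73 ± 0.57 for Gata4 (± SE, adjusted p = 0.0418), 3.16 ± 0.22 for Gata6, 2.48 ± 0.31 for Pdgfra, 1.44 ± 0.26 for Dab2 and 0.91 ± 0.09 for Lamb1. It exceeded the Nanog-cKO line by 1.99 ± 0.22 for Gata6, 1.03 ± 0.31 for Pdgfra (adjusted p = 0.0194), 3.24 ± 0.26 for Dab2, 1.28 ± 0.06 for Lama1 and 1.05 ± 0.09 for Lamb1. The Sox2-cKO minus Nanog-cKO difference was −2.88 ± 0.57 for Gata4, −1.17 ± 0.22 for Gata6, −1.44 ± 0.31 for Pdgfra, 1.80 ± 0.26 for Dab2 and 1.03 ± 0.06 for Lama1. For the change with Dox, the Oct4-cKO minus Nanog-cKO difference was −2.68 ± 0.57 for Gata4, 3.05 ± 1.09 for Sox7 (adjusted p = 0.0424) and −2.39 ± 0.06 for Lama1, and the Sox2-cKO minus Nanog-cKO difference was 1.39 ± 0.31 for Pdgfra and −2.09 ± 0.06 for Lama1. Of these 20 differences 17 held whichever library was left out. Gata4 between the Oct4- and Sox2-cKO conversions was lost in every such fit but that without Oct4-cKO ESC replicate 1 (adjusted p up to 0.235). Pdgfra between the Oct4- and Nanog-cKO conversions was lost without Nanog-cKO ESC replicate 1, Nanog-cKO L-EPSC replicate 2, Oct4-cKO ESC replicate 2 or Oct4-cKO L-EPSC replicate 1 (adjusted p up to 0.0983). Sox7 between the Oct4- and Nanog-cKO Dox effects was kept only without Nanog-cKO Dox replicate 2 or Oct4-cKO L-EPSC replicate 1 (adjusted p otherwise up to 0.217). The Sox7 difference was also lost with edgeR, DESeq2, a pseudocount of 0.1 and only the groups compared (adjusted p = 0.0606, 0.0525, 0.0721 and 0.198). With only the groups compared, the Pdgfra differences of the Oct4- and Sox2-cKO conversions from the Nanog-cKO one were lost (adjusted p = 0.128 and 0.0672), and so was Gata4 between the Oct4- and Sox2-cKO conversions (adjusted p = 0.115), which a pseudocount of 0.1 also lost (adjusted p = 0.058).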

How the results depend on the processing

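Under the other tools, scalings, filters and pseudocount, most member results kept their direction and their side of the threshold (1139 results, with 29 that lost a call, 27 that gained one and 14 that reversed). The count of members called fell from 5 to 3 in the Oct4-cKO conversion with a log2 limit of 1, and from 8 to 5 in the Sox2-cKO conversion with that limit or when only the groups compared were fitted. Fitting only the groups compared also gave 4 in place of 7 in the Nanog-cKO conversion, 2 in place of 4 with Dox in the Oct4-cKO line and again 2 in place of 4 in the Sox2-cKO line. With Dox in the Nanog-cKO line the count of 1 became 2 with a pseudocount of 0.1, 0 with only the groups compared and 3 with a limit of 0.6. Genes with a mean of at least 10 gave 4 in place of 2 for the Sox2- minus Nanog-cKO Dox effect. Leaving out 1 library gave 3 to 4 calls in J1 L-EPSCs against ESCs, 3 to 4 in the Oct4-cKO conversion, 5 to 6 in the Sox2-cKO conversion, 4 to 8 in the Nanog-cKO conversion and 0 to 2 with Dox in the Nanog-cKO line. Over all genes, 1913 in place of 2881 were called in J1 L-EPSCs against D-EPSCs without D-EPSC replicate 2, and 479 in place of 1293 with Dox in the Nanog-cKO line with only the groups compared.

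The log2 values that reversed, none of them called at first, were Cubn in Sox2-cKO with Dox −0.11 (edgeR), −0.10 (DESeq2), then Cubn in Nanog-cKO with Dox 1.04 (pseudocount 0.1), then Sox17 in the Oct4- minus Nanog-cKO conversion −0.0076 (median centring), then Sox7 in the Oct4- minus Sox2-cKO Dox effect −0.039 (edgeR), −0.063 (DESeq2), then Sox17 in the Oct4- minus Sox2-cKO Dox effect 1.18 (pseudocount 0.1), then Cubn in the Oct4- minus Nanog-cKO Dox effect −0.60 (pseudocount 0.1), then Dab2 in the Sox2- minus Nanog-cKO Dox effect −0.0198 (edgeR), −0.0207 (DESeq2), −0.00596 (TMM scaling), −0.074 (median centring), −0.0286 (pseudocount 0.1), then Cubn in the Sox2- minus Nanog-cKO Dox effect −0.62 (pseudocount 0.1). Leaving out 1 library gave a log2 range across 0 for Gata4 in J1 D-EPSCs against ESCs −0.47 to 0.54, Gata6 in J1 D-EPSCs against ESCs −0.38 to 0.24, Gata4 in the Oct4-cKO conversion −0.043 to 1.16, Cubn in the Oct4-cKO conversion −1.11 to 0.057, Pdgfra in the Nanog-cKO conversion −0.49 to 0.092, Sox7 in Oct4-cKO with Dox −0.27 to 0.99, Sox7 in Sox2-cKO with Dox −0.46 to 0.78, Cubn in Sox2-cKO with Dox −1.02 to 1.502, Cubn in Nanog-cKO with Dox −1.36 to 1.30, Sox17 in the Oct4- minus Nanog-cKO conversion −0.70 to 0.72, Sox7 in the Oct4- minus Nanog-cKO conversion −0.0218 to 1.24, Sox7 in the Sox2- minus Nanog-cKO conversion −0.65 to 0.20, Cubn in the Sox2- minus Nanog-cKO conversion −0.79 to 1.87, Sox17 in the Oct4- minus Sox2-cKO Dox effect −1.35 to 1.22, Cubn in the Oct4- minus Sox2-cKO Dox effect −1.12 to 1.40, Sox7 in the Oct4- minus Sox2-cKO Dox effect −0.43 to 0.83, Cubn in the Oct4- minus Nanog-cKO Dox effect −0.92 to 1.74, Dab2 in the Sox2- minus Nanog-cKO Dox effect −0.17 to 0.18, Cubn in the Sox2- minus Nanog-cKO Dox effect −1.06 to 1.60. The cause was not tested.

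The replicate numbers gave no sign of pairing the libraries, though this check cannot show how the replicates were grown. For genes with a mean of at least 100, the difference between the replicates of each group was taken in number order. Between pairs of tet-off groups, these differences had correlations of −0.0625 to 0.0626 (36 group pairs, 10030 genes), and between pairs of J1 groups −0.00757 to 0.0264 (3 group pairs, 10317 genes). The fit with a replicate block changed 2 member calls: Gata4 in the Oct4- minus Sox2-cKO conversion (log2 1.73, adjusted p = 0.051) and Sox7 in the Oct4- minus Nanog-cKO Dox effect (log2 3.05, adjusted p = 0.0511). Sox17, Sox7, Cubn and Gata4 had groups with 10 or fewer reads in a library, which widens their counting error.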

Other observations

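Over the means of the 9 tet-off groups, the genes most like each member were taken by the root mean square difference of their centred log2 levels, among 14172 genes; all groups come from 1 table, and no test was made. For Gata4 they were Cpne9 (0.377), Ppp1r16b (0.394) and Rbp4 (0.458). For Gata6 they were Pygl (0.589), Rasd1 (0.589) and Med12l (0.599). For Sox17 they were Srrm4os (0.32), B230206L02Rik (0.491) and Crnde (0.493). For Sox7 they were Atcay (0.62), Lrrn2 (0.654) and Gap43 (0.659). For Pdgfra they were Tgfb3 (0.279), Rhbdf1 (0.312) and Gramd3 (0.321). For Dab2 they were Parm1 (0.33), Fhl2 (0.416) and Lcp1 (0.508). For Cubn they were Crym (0.584), Ccnd2 (0.623) and Nlrc4 (0.632). For Lama1 they were Col18a1 (0.308), Robo1 (0.344) and Axl (0.391). For Lamb1 they were Tbx6 (0.167), Tmem245 (0.184) and Stat6 (0.185).

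Among marker lists of other cells, pluripotency genes (10 tested) had 0 higher and 10 lower with Dox in the Oct4-cKO line, 0 higher and 9 lower in the Sox2-cKO line and 0 higher and 1 lower in the Nanog-cKO line, and 0 higher and 7 lower and 0 higher and 6 lower in J1 D-EPSCs and L-EPSCs against ESCs. This list holds the 3 targeted genes, so the target of each line is itself among the genes called lower with Dox there. In the Nanog-cKO line the target, Nanog, is the only such gene. Mesendoderm genes (7 tested) had 0 higher and 2 lower, 0 higher and 3 lower and 0 higher and 2 lower with Dox in the same lines, and 1 higher and 0 lower, 1 higher and 0 lower and 2 higher and 3 lower on conversion, and their J1 counts stand with Cubn above. Endothelial genes had 1 higher and 2 lower, 1 higher and 3 lower and 0 higher and 2 lower with Dox, and fibroblast genes had 3 higher and 4 lower of 12 tested in J1 D-EPSCs and 0 higher and 9 lower in L-EPSCs against ESCs. The shares of all genes called in these comparisons stand with the endoderm lists above, and several of these counts are near them.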
